A study of Mus musculus with 36 samples.

Results

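The 41 genes described here encode the enzymes and 1 carrier of the urea cycle and of amino acid breakdown in the liver. They were listed by name, with earlier results of these data known, and all 41 were found among the 34829 genes of the deposited table. The list holds 7 urea cycle genes, 5 genes of glutamate, ornithine and proline, 6 of serine and the aminotransferases, 4 of histidine, 4 of tyrosine, 5 of tryptophan, 7 of methionine and cysteine, 1 of lysine and 2 of the branched-chain amino acids. Liver RNA came from C57BL6/J mice, an inbred laboratory strain, kept at 30 °C (the libraries titled TN) or at 22 °C (titled RT) and injected with lipopolysaccharide (LPS), a component of the outer membrane of Gram-negative bacteria that sets off inflammation. At 30 °C there were 5 libraries at 0 h, 4 at 4 h, 4 at 12 h and 5 at 24 h after injection, and at 22 °C there were 4 at 0 h, 4 at 4 h, 5 at 12 h and 5 at 24 h. No group without LPS was sampled at the later times, so time of day, feeding and handling cannot be told apart from LPS. The labels do not say that each library came from a separate animal, and the spread that p-values measure is that between the 36 libraries.

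The urea cycle turns ammonia, which is set free when amino acids are broken down, into urea for excretion. Its first steps lie in the mitochondria of hepatocytes (Cps1, Otc) and the later ones in the cytosol (Ass1, Asl, Arg1), and a carrier (Slc25a15) brings ornithine back in. Other liver enzymes strip the amino groups and pass the carbon skeletons to glucose synthesis, the citric acid cycle, cofactor synthesis or the one-carbon pool, and the methionine branch makes S-adenosylmethionine and cysteine.

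Libraries were made with a CEL-Seq2 protocol adapted to bulk RNA, which reads the 3' ends of transcripts, and held an estimated 557000 to 2744000 reads. Values are a length-scaled read signal, given below simply as signal. A low value shared by many genes of a library was taken as the worth of 1 read for all its genes. The true worth can differ between genes, so read numbers and floors given here are approximate. Levels are compared between groups and not between genes. A signal worth 3 reads lay between 1.33 and 5.05 over the libraries. Differences are log2(signal + 1) from limma's moderated test fitted over the 8702 genes whose mean signal reached 5. P-values carry Benjamini-Hochberg adjustment, and a gene is called when its adjusted p is below 0.05. A value after ± is an SD for signal, with the n above, and an SE for a log2 difference. All 41 members passed the filter, with Prodh and Afmid the lowest. The hepatocyte markers Alb, Apoa1, Apob, Ttr and Serpina1c were present in all 8 groups, with a summed signal of 8646 to 37870 per library, while 3 or 4 of the 5 kidney tubule markers were at 0 in every library of each group. Library 4 at 4 h at 30 °C stood apart, with 18633 genes above 0 against 12307 to 14233 in the other 35 libraries, and results at 4 h are given with and without it. In bulk RNA, fewer hepatocytes and less RNA per hepatocyte cannot be told apart.

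The start-site regions of 8 members follow, read from the RefSeq promoter table of build GRCm38.p6, each from 250 bases before to 50 after the start of the gene, 5' to 3' on the gene's strand. By the mean log2 difference of both temperatures at 12 h, Afmid, Uroc1 and Amdhd1 had the largest falls among the 30 members with an entry. Gpt2, Got1 and Tdo2 had the largest rises by that mean, and the order at either temperature alone differs. Hal and Ftcd are added to complete the histidine pathway, whose 4 members all had a called difference in response between the temperatures at 24 h. Capitals mark matches to C/EBP (TTGCNNAA), HNF4A (CAAAGNNCA), HNF1, STAT (TTCNNNGAA), cAMP response (TGACGT), glucocorticoid receptor or TATA box (TATAAA) motifs on either strand, and none of the marked matches overlap.
Afmid (chr11:117825669-117825968, plus strand): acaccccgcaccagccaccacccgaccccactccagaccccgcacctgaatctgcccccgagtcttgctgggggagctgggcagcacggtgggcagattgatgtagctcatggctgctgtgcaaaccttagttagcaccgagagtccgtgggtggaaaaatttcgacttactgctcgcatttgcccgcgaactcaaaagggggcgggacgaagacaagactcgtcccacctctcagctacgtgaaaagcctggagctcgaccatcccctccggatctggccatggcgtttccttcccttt
Uroc1 (chr6:90333039-90333338, plus strand): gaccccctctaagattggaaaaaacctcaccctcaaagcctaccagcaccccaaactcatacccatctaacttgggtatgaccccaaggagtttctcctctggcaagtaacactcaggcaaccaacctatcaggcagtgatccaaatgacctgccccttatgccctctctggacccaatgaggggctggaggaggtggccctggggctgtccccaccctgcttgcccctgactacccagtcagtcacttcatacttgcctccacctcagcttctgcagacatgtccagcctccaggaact
Amdhd1 (chr10:93539984-93540283, minus strand): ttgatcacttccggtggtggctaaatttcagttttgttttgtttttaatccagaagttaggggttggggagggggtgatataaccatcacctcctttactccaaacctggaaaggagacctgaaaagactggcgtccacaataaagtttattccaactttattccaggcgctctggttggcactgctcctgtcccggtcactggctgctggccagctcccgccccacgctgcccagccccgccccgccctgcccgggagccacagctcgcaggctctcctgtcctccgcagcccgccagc
Hal (chr10:93488518-93488817, plus strand): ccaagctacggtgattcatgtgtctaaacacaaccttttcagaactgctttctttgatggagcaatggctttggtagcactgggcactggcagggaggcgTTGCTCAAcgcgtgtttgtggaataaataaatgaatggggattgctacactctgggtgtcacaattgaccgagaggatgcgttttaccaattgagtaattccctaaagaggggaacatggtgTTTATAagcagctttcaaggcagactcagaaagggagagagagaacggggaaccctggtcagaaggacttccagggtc
Ftcd (chr10:76575398-76575697, plus strand): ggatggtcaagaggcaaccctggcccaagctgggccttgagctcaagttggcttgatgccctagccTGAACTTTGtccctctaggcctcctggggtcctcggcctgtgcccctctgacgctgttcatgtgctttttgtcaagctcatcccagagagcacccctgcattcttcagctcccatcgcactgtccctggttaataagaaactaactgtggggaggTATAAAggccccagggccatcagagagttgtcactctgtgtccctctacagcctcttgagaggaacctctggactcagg
Gpt2 (chr8:85492326-85492625, plus strand): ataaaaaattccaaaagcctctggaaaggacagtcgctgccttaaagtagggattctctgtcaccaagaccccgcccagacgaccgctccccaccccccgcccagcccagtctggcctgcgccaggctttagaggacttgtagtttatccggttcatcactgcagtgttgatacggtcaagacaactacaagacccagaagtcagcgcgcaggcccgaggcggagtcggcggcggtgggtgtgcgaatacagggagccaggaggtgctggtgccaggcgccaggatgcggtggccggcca
Got1 (chr19:43524556-43524855, minus strand): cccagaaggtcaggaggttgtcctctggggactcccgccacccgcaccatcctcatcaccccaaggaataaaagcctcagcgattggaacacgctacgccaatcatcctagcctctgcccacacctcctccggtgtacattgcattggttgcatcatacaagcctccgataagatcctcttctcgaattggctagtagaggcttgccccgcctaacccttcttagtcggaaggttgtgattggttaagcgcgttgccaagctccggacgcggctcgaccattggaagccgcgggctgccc
Tdo2 (chr3:81975679-81975978, minus strand): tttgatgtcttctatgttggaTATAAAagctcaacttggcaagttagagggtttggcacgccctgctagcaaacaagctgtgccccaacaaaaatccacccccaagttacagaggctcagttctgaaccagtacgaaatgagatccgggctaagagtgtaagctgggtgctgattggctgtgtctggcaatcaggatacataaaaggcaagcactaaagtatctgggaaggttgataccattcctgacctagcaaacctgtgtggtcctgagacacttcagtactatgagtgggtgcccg
For Tdo2 the RefSeq start lies downstream of the start of the gene model given below. In Hal the capitals are a C/EBP match from -150 to -143 and a TATA match on the other strand from -28 to -23. Ftcd held an HNF4A match on the other strand from -184 to -176 and a TATA match from -29 to -24, and Tdo2 a TATA match from -229 to -224. No listed motif was found in the windows of Afmid, Uroc1, Amdhd1, Gpt2 or Got1. Over the 30 members with an entry, HNF4A matched in 6 (Agxt, Ahcy, Bhmt, Ftcd, Haao and Kmo), against 6.36% of all 32851 promoters in the table. C/EBP matched in 4 (Aass, Hal, Hgd and Prodh2), against 10.8%, and TATA in 4 (Ftcd, Hal, Hgd and Tdo2), against 13.6%. The other 4 motifs matched 1 member each, against 0.14% of all promoters for HNF1 (12 letters), 0.475% for the glucocorticoid receptor, 7.51% for cAMP response and 8.3% for STAT. These matches describe letters in the window and say nothing of binding.

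Most of the list fell by 12 h after LPS at both temperatures, and the temperatures parted at 24 h. At 12 h, 24 of the 41 members were lower than at 0 h at 30 °C, where 18.9% of all genes tested were lower, and 24 were lower at 22 °C, where 20.6% were. Higher at 12 h were 8 members at 30 °C, against 19.3% of all genes, and 6 at 22 °C, against 20.7%. The 2 sets overlapped widely, with 22 members lower and 5 higher at both temperatures. At 24 h, 16 members were lower and 14 higher than at 0 h at 30 °C, where 14.4% and 15.3% of all genes were. At 22 °C, 24 were lower and 6 higher, against 18% and 19% of all genes. With any 1 library left out, the 24 h counts at 30 °C were 11 to 17 lower and 13 to 14 higher. At 22 °C they were 24 to 25 lower and 5 to 6 higher. The median log2 difference of the members at 12 h was -1.41 at 30 °C and -1.01 at 22 °C, and at 24 h it was -0.07 at 30 °C and -1.30 at 22 °C. Medians over all genes tested lay within 0.1 of 0 in every comparison against 0 h. Markers of cell types moved too. The summed hepatocyte markers were 9881 to 12960 at 30 °C and 11840 to 19680 at 22 °C at 12 h, against 22970 to 37870 at 30 °C and 23120 to 32250 at 22 °C at 0 h, and 4 of the 5 were called lower at 30 °C and 3 at 22 °C. The 8 neutrophil and monocyte markers summed to 283 to 506 at 30 °C and 190.3 to 287 at 22 °C at 12 h, against 9.96 to 19.2 at 30 °C and 9.35 to 19.3 at 22 °C at 0 h. Of the 3 that were tested, 3 were higher at 30 °C and 2 at 22 °C, and Mpo was at 0 in every 12 h library. The 7 Kupffer cell markers summed to 45.9 to 66.2 at 30 °C and 45.0 to 72.3 at 22 °C at 12 h, against 172 to 218 and 126 to 191 at 0 h. Of these, 4 were lower and 1 higher at 30 °C, and 3 lower and 1 higher at 22 °C. The sinusoidal endothelial markers summed to 126 to 174 at 30 °C and 125 to 211 at 22 °C, against 242 to 356 and 249 to 283 at 0 h. The part of these cells in the members' values was not tested.

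**Figure D1:**
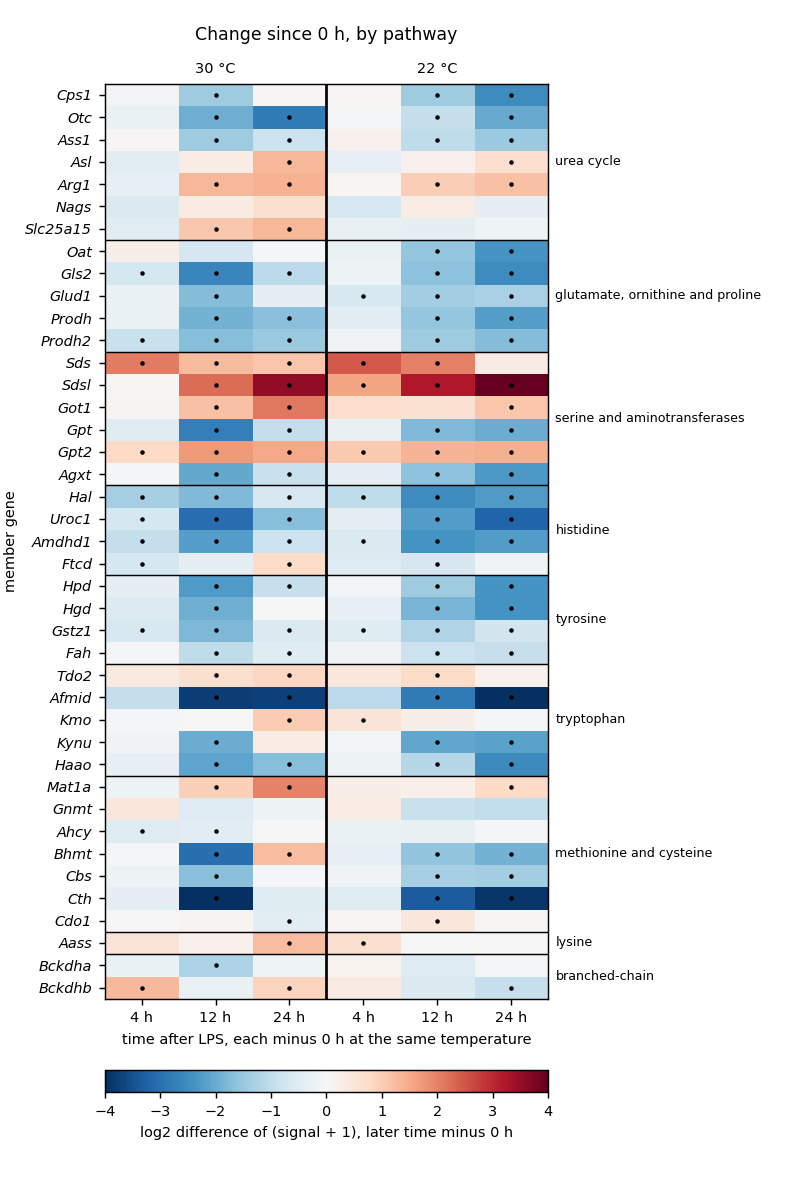
Log2 difference of (signal + 1) of each later time minus 0 h at the same temperature, for the 41 members in rows grouped by pathway, with 30 °C in the left 3 columns and 22 °C in the right 3; dots mark limma adjusted p under 0.05 and the colour scale ends at 4 in either direction. Blue fills most rows at 12 h on both sides, and at 24 h it fills more rows at 22 °C (24 members called lower) than at 30 °C (16).

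Few members were called at 4 h. At 30 °C, 8 members were lower and 3 higher, against 14.6% and 17.8% of all genes. At 22 °C, 4 were lower and 5 higher, against 13.6% and 15.8%. The member share was above that of all genes for the lower direction at 30 °C (19.5%) and below it for the other 3 (7.32% higher at 30 °C, 9.76% lower and 12.2% higher at 22 °C). Sds and Gpt2 were higher and Hal, Amdhd1 and Gstz1 lower at both temperatures. Bckdhb was higher at 30 °C alone, and Sdsl, Kmo and Aass at 22 °C alone. The Sdsl call there (1.59, adjusted p = 0.00236) was lost when only the groups compared were fitted (0.0831). That of Aass (0.65, adjusted p = 0.0428) was lost without library 2, 3 or 4 at 0 h or 1 or 2 at 4 h (adjusted p 0.0294 to 0.165 over its alternatives). Of the 20 calls at 4 h, 11 held under every alternative, among them those of Sds, Gpt2 and Hal at both temperatures. At 22 °C the call of Amdhd1 was lost without any 1 of 7 of the 8 libraries (all but library 2 at 4 h; adjusted p 0.0153 to 0.131 over its alternatives) and that of Gstz1 without library 2 or 4 at 0 h or 3 or 4 at 4 h (0.00749 to 0.118). Without library 4 at 4 h at 30 °C the counts there were still 8 lower and 3 higher. Leaving out library 2 of either the 0 h or the 4 h group at 30 °C left 5 members lower in place of 8, and leaving out 22 °C library 4 at 0 h, or library 3 or 4 at 4 h, left 2 in place of 4.

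Within the urea cycle the enzymes did not move together. Cps1, Otc and Ass1, the first 3 enzymes, fell at 12 h at both temperatures, while Arg1, the last enzyme, rose at both. At 24 h Cps1 was lower than at 0 h at 22 °C and not called at 30 °C. Cps1, carbamoyl phosphate synthetase and the entry step of the cycle (ENSMUSG00000025991, chr1:67123026-67231259, plus strand, GRCm38 as all positions here), read 2450, 2880, 1377, 2203 and 2348 at 0 h and 2670, 2114, 1819 and 1701 at 4 h at 30 °C. Later it read 1110, 706, 942 and 627 at 12 h and 2426, 1938, 2294, 1997 and 2806 at 24 h. At 22 °C it read 2845, 2772, 2461 and 3412 at 0 h and 3104, 3887, 2998 and 2253 at 4 h. Later it read 1362, 1598, 938, 1111 and 632 at 12 h and 472, 388, 431, 432 and 925 at 24 h. All 5 libraries at 30 °C were above all 5 at 22 °C at 24 h, and the 24 h libraries at 30 °C lay within the range of the 0 h ones. The 24 h minus 0 h difference was 0.05 ± 0.23 at 30 °C (adjusted p = 0.889) and -2.51 ± 0.24 at 22 °C (adjusted p = 3.19e-10). The interaction, the first minus the second, was 2.56 ± 0.33 (adjusted p = 1.11e-05).

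Otc, ornithine transcarbamylase (ENSMUSG00000031173, chrX:10252305-10321024, plus strand), fell at both temperatures and was the lower at 30 °C. At 30 °C it read 2523, 2752, 2264, 2349 and 2294 at 0 h and 2146, 2107, 1897 and 1913 at 4 h. Later it read 639, 519, 813 and 591 at 12 h and 433, 325, 751, 123 and 394 at 24 h. At 22 °C it read 2467, 2325, 2305 and 2621 at 0 h and 2468, 2093, 2360 and 2288 at 4 h. Later it read 1609, 1439, 1200, 1199 and 920.0 at 12 h and 632, 694, 704, 562 and 451 at 24 h. Every library at 12 and 24 h was below every library at 0 h at its temperature, and at 12 h every 30 °C library was below every 22 °C library. The fall by 24 h was -2.80 ± 0.24 at 30 °C (adjusted p = 3.37e-11) and -2.01 ± 0.26 at 22 °C (adjusted p = 1.09e-07). Otc was lower at 30 °C than at 22 °C at 12 h (-0.98 ± 0.26, adjusted p = 0.0209) and at 24 h (-0.78 ± 0.24, adjusted p = 0.0214). The 24 h call was lost without 30 °C library 4 or 22 °C library 2 or 3 (adjusted p 0.000861 to 0.168 over its alternatives). The 12 h call was lost without 30 °C library 1, 2 or 4 or 22 °C library 1 or 2 (adjusted p 0.00284 to 0.0888 over its alternatives). The interaction at 24 h was not called (-0.79 ± 0.35, adjusted p = 0.176), but was without 30 °C library 3 at 24 h (-1.06, adjusted p = 0.0305).

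Ass1, argininosuccinate synthetase (ENSMUSG00000076441, chr2:31470207-31520672, plus strand), read 46.2, 69.7, 68.2, 34.7 and 32.8 at 0 h and 46.0, 35.1, 48.9 and 77.3 at 4 h at 30 °C. Later it read 18.1, 16.6, 19.9 and 14.4 at 12 h and 43.5, 33.8, 35.3, 16.3 and 13.7 at 24 h. The 22 °C libraries read 57.1, 40.95, 52.5 and 77.8 at 0 h and 69.8, 83.0, 59.5 and 43.7 at 4 h. Later it read 25.8, 44.7, 24.8, 35.3 and 14.6 at 12 h and 21.3, 19.3, 21.5, 14.3 and 20.5 at 24 h. The 24 h libraries at 30 °C spread over a wide range, and 2 of the 5 were below all 5 libraries at 0 h. The 12 h fall was -1.43 ± 0.31 at 30 °C (adjusted p = 0.00033) and -1.01 ± 0.31 at 22 °C (adjusted p = 0.00898). At 24 h it was -0.86 ± 0.29 at 30 °C (adjusted p = 0.0247) and -1.49 ± 0.31 at 22 °C (adjusted p = 0.000234). The 24 h call at 30 °C was lost without library 2 or 3 at 0 h or 4 or 5 at 24 h (adjusted p 0.00896 to 0.107 over its alternatives).

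Asl, argininosuccinate lyase (ENSMUSG00000025533, chr5:130011258-130029247, minus strand), was higher at 24 h at both temperatures. At 30 °C it read 363, 515, 311, 254.6 and 301 at 0 h and 314, 168, 269 and 258 at 4 h. Later it read 519.9, 316, 435 and 408 at 12 h and 1006, 798, 808, 673 and 987 at 24 h. At 22 °C it read 402, 266, 379.5 and 492 at 0 h and 307, 321, 315 and 268 at 4 h. Later it read 496, 420.1, 315, 534 and 404 at 12 h and 491, 598, 405, 719 and 890.1 at 24 h. At 30 °C all 24 h libraries were above all 0 h libraries, and at 22 °C the ranges overlapped. The rise by 24 h was 1.32 ± 0.20 at 30 °C (adjusted p = 5.16e-06) and 0.67 ± 0.22 at 22 °C (adjusted p = 0.0146), the second of which was lost without library 2 at 0 h or library 5 at 24 h (adjusted p 0.0042 to 0.0892 over its alternatives). Arg1, arginase 1, which splits arginine into urea and ornithine (ENSMUSG00000019987, chr10:24915221-24927484, minus strand), read 1068, 1188, 1023, 898 and 1025 at 0 h and 986, 1034, 732 and 598 at 4 h at 30 °C. Later it read 3089, 2024, 2728 and 2615 at 12 h and 2594, 2497, 2318, 2621 and 3863 at 24 h. The 22 °C libraries read 1154, 1017, 947 and 1497 at 0 h and 1268, 1354, 1089 and 1084 at 4 h. Later it read 2399, 1655, 2110, 2459 and 2762 at 12 h and 2487, 2249, 2303, 2706 and 3112 at 24 h. Every library at 12 and 24 h was above every library at 0 h. The rise by 24 h was 1.40 ± 0.16 at 30 °C (adjusted p = 1.82e-08) and 1.17 ± 0.17 at 22 °C (adjusted p = 1.16e-06), with an uncalled interaction of 0.23 ± 0.23 (adjusted p = 0.612).

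The mitochondrial ornithine carrier Slc25a15 (ENSMUSG00000031482, chr8:22375551-22398597, minus strand) averaged 211 ± 61.03 at 30 °C and 308 ± 56.7 at 22 °C at 0 h. At 12 h it read 519, 416, 467 and 345 at 30 °C, against 178, 194, 219, 282 and 318 at 22 °C. At 24 h it read 549, 546, 450.0, 452 and 556 at 30 °C, against 296, 224, 159, 365 and 361 at 22 °C. The 30 °C libraries were above the 22 °C ones at 12 and 24 h, without overlap, and the means lay in the other order at 0 h. The carrier rose at 30 °C by 24 h (1.31 ± 0.21, adjusted p = 7.45e-06), and differed by -0.18 ± 0.22 at 22 °C (adjusted p = 0.566), with an interaction of 1.49 ± 0.30 (adjusted p = 0.00159). Its interaction at 12 h, 1.46 ± 0.31 (adjusted p = 0.0259), was the single one called among the members at that time, where 0.0689% of all genes were called higher and 0.207% lower. It was lost without any 1 of 7 libraries (30 °C library 3 and 22 °C library 4 at 0 h, 30 °C libraries 1 and 2 and 22 °C libraries 1, 2 and 3 at 12 h; adjusted p 0.00799 to 0.0805 over its alternatives). The carrier's 12 h difference between the temperatures (0.89 ± 0.22, adjusted p = 0.0145) was lost without 30 °C library 1 or 22 °C library 1 or 2 (adjusted p 0.00148 to 0.0696 over its alternatives). Nags, N-acetylglutamate synthase, which makes the activator of Cps1, was not called in any comparison, with 24.2 ± 12.0 at 30 °C and 19.2 ± 9.50 at 22 °C at 24 h.

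**Figure D2:**
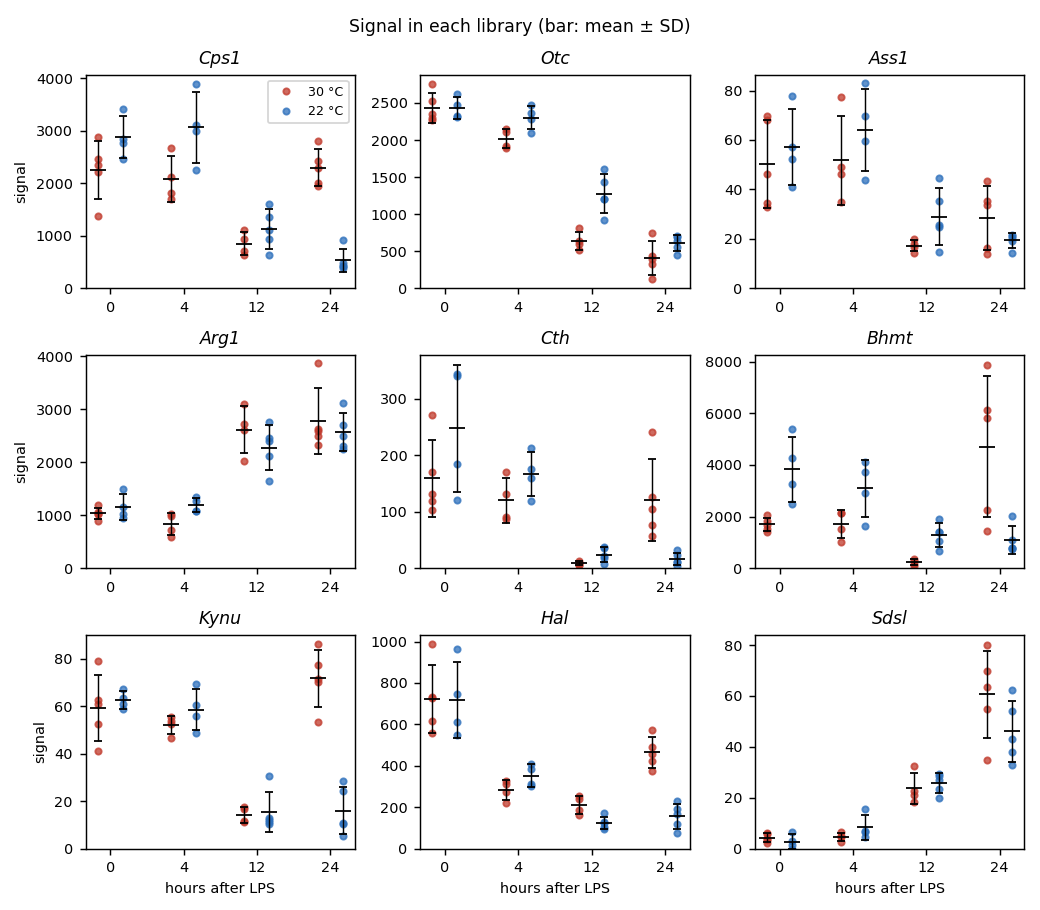
Signal of 9 members in each library against hours after LPS, with 30 °C (red) left of 22 °C (blue) at each time and black bars for the mean ± SD of each group (n = 4 or 5). Cps1, Cth, Bhmt, Kynu and Hal stand higher at 30 °C than at 22 °C at 24 h, Otc is low and Arg1 high at both, and Sdsl is higher at 24 h than at 0 h at both.

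All 5 genes of glutamate, ornithine and proline were lower at 12 and 24 h at 22 °C, and at 30 °C 4 were lower at 12 h and 3 at 24 h. Gls2, the liver glutaminase that frees ammonia from glutamine (ENSMUSG00000044005, chr10:128194457-128210004, plus strand), had the largest 24 h difference between temperatures of the 5. It averaged 104 ± 29.6 at 30 °C and 106 ± 23.4 at 22 °C at 0 h. At 12 h it read 19.2, 14.5, 15.3 and 13.9 at 30 °C, against 35.0, 48.4, 29.9, 33.6 and 21.7 at 22 °C, with every 30 °C library lower. At 24 h it read 59.1, 45.2, 49.6, 35.5 and 60.0 at 30 °C, against 17.2, 20.8, 9.56, 18.6 and 23.4 at 22 °C, with every 30 °C library higher. Its difference between temperatures was 1.46 ± 0.23 at 24 h (adjusted p = 2.18e-05). It was -1.02 ± 0.24 at 12 h (adjusted p = 0.011; 0.0569, the highest of its alternatives, without 22 °C library 2). Its 24 h interaction was 1.49 ± 0.34 (adjusted p = 0.00411). Spryd4, which shares exon bases with Gls2 on the opposite strand, had a 24 h interaction of 0.01.

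Oat, ornithine aminotransferase (ENSMUSG00000030934, chr7:132557478-132576398, minus strand), was the single member called between the temperatures before LPS. At 0 h it read 253, 411, 195, 161 and 168 at 30 °C, against 679.6, 457, 743 and 757 at 22 °C, with every 30 °C library below every 22 °C library. The difference was -1.53 ± 0.27 (adjusted p = 0.00169; 0.0685, the highest of its alternatives, when only these 2 groups were fitted). At 24 h it read 234, 171, 271, 173 and 228 at 30 °C, against 156, 146, 73.3, 147 and 129.8 at 22 °C, with every 30 °C library higher. Relative to 0 h it was lower at 22 °C (-2.35 ± 0.27, adjusted p = 1.4e-08) and not called at 30 °C (-0.07 ± 0.26, adjusted p = 0.866). The interaction was 2.28 ± 0.37 (adjusted p = 0.000141), which includes the difference at 0 h. The 24 h difference itself was 0.74 ± 0.26 (adjusted p = 0.0387) and was lost without 30 °C library 1, 3 or 5 or 22 °C library 3 (adjusted p 0.0229 to 0.157 over its alternatives).

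Glud1, glutamate dehydrogenase, which releases ammonia from glutamate in mitochondria, read 185, 154, 232, 119 and 182 at 24 h at 30 °C, against 106, 79.9, 71.6, 131 and 159 at 22 °C, with overlapping ranges. It averaged 224 ± 25.9 at 30 °C and 260.3 ± 24.4 at 22 °C at 0 h, and 65.6 ± 4.89 at 30 °C and 100 ± 16.0 at 22 °C at 12 h. Its 24 h interaction of 0.92 ± 0.25 (adjusted p = 0.0182) was lost when the 4 groups were fitted alone (0.0673, the highest of its alternatives), as was the 24 h difference between temperatures (0.0707). The proline dehydrogenases, which start proline and hydroxyproline breakdown, fell without a called difference between temperatures. Prodh2 averaged 20.4 ± 8.31 at 30 °C and 14.9 ± 5.99 at 22 °C at 24 h, against 55.5 ± 14.1 at 30 °C and 51.2 ± 15.7 at 22 °C at 0 h. Prodh averaged 3.16 ± 2.24 at 30 °C and 3.03 ± 1.59 at 22 °C at 24 h, with 3 of 5 libraries at 30 °C and 4 of 5 at 22 °C below the worth of 3 reads. Its values equal those of 1 unnamed gene identifier in every library.

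Of the 6 genes of serine and the aminotransferases, Sds, Sdsl, Got1 and Gpt2 were higher and Gpt and Agxt lower at 24 h at 30 °C, and at 22 °C the same calls were made but for Sds. Sdsl, a serine dehydratase-like enzyme (ENSMUSG00000029596, chr5:120458186-120472810, minus strand), had the largest rise of the list. It read 54.7, 80.0, 34.8, 69.95 and 63.3 at 24 h at 30 °C and 43.1, 54.1, 32.9, 62.2 and 37.9 at 22 °C, against 5.75, 3.80, 3.37, 2.33 and 6.27 at 0 h at 30 °C and 0, 6.62, 1.27 and 2.83 at 22 °C. Every 24 h library was above every 0 h library, and at 0 h 2 of the 5 libraries at 30 °C and 3 of the 4 at 22 °C were below the worth of 3 reads. Its difference was 3.54 ± 0.36 at 30 °C (adjusted p = 1.18e-09) and 4.01 ± 0.38 at 22 °C (adjusted p = 2.33e-10), and it depends on the added 1 at this depth.

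Sds, serine dehydratase, which feeds serine carbon to glucose synthesis (ENSMUSG00000029597, chr5:120476526-120483932, plus strand), had its highest means at 4 h. It read 225, 184, 199 and 137 at 4 h at 30 °C and 214, 386, 413 and 284 at 22 °C, against 63.2, 61.7, 46.1, 43.1 and 19.1 at 0 h at 30 °C and 35.0, 106, 39.1 and 71.3 at 22 °C. All 4 h libraries were above all 0 h libraries at their temperature. The rise was 2.06 ± 0.42 at 30 °C (adjusted p = 0.000214) and 2.45 ± 0.44 at 22 °C (adjusted p = 4.82e-05). At 24 h it averaged 100.4 ± 37.0 at 30 °C and 91.1 ± 70.5 at 22 °C. The call against 0 h at 30 °C (1.12 ± 0.40, adjusted p = 0.0309) was lost without library 5 at 0 h or library 1 or 5 at 24 h (adjusted p 0.0165 to 0.119 over its alternatives). The 12 h call there was lost without library 5 at 0 h or 1 at 12 h (adjusted p 0.00914 to 0.0943 over its alternatives). Plbd2, a gene that shares exon bases with Sds on the opposite strand, was also higher at 4 h than at 0 h (0.88 ± 0.22 at 30 °C, 1.65 ± 0.23 at 22 °C). The sources used here do not say whether counting used strand, so Sds reads cannot be told apart from those of Plbd2.

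Got1, the cytosolic aspartate aminotransferase (ENSMUSG00000025190, chr19:43499752-43524605, minus strand), read 575, 837, 562, 944 and 645 at 24 h at 30 °C and 536, 628, 316, 514 and 574 at 22 °C, against 184, 292, 128, 116 and 132 at 0 h at 30 °C and 266, 204, 164 and 312 at 22 °C. All 24 h libraries were above all 0 h libraries at their temperature. It rose by 2.11 ± 0.25 at 30 °C (adjusted p = 2.53e-08) and 1.12 ± 0.26 at 22 °C (adjusted p = 0.000878), without a called interaction (0.99 ± 0.36, adjusted p = 0.0793). The 2 alanine aminotransferases moved in opposite directions. Gpt2, the mitochondrial form (ENSMUSG00000031700, chr8:85492576-85527560, plus strand), read 126, 114, 95.6 and 88.2 at 12 h at 30 °C and 155, 139, 149.7, 102 and 91.3 at 22 °C, against 32.6, 44.2, 40.1, 17.7 and 29.5 at 0 h at 30 °C and 57.4, 38.5, 36.4 and 63.8 at 22 °C. Every 12 h library was above every 0 h library at its temperature, and Gpt2 was called higher at 4, 12 and 24 h at both temperatures. Gpt, the cytosolic form (ENSMUSG00000022546, chr15:76695716-76699686, plus strand), read 5.89, 11.9, 14.9 and 7.53 at 12 h at 30 °C and 26.6, 36.6, 21.8, 32.1 and 10.9 at 22 °C, against 74.8, 104, 60.6, 49.0 and 62.7 at 0 h at 30 °C and 77.6, 56.2, 80.1 and 136 at 22 °C. Every 12 h library of Gpt was below every 0 h library at its temperature, with differences of -2.72 ± 0.34 at 30 °C (adjusted p = 4.84e-08) and -1.76 ± 0.34 at 22 °C (adjusted p = 7.25e-05). At 24 h Gpt at 30 °C was -0.94 ± 0.32 from 0 h (adjusted p = 0.0231), lost without library 2 at 0 h or library 2 or 4 at 24 h (adjusted p 0.0126 to 0.109 over its alternatives).

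Agxt, the peroxisomal enzyme that clears glyoxylate, read 49.9, 25.9, 39.1, 34.5 and 46.8 at 24 h at 30 °C, against 22.1, 22.1, 17.5, 33.2 and 10.8 at 22 °C. Its means at 0 h were 76.2 ± 32.5 at 30 °C and 107 ± 35.2 at 22 °C. The interaction of 1.41 ± 0.44 (adjusted p = 0.0399) was the least steady of the 20 called at 24 h. It was lost without any 1 of 13 of the 19 libraries: 30 °C libraries 1, 3, 4 and 5 and 22 °C libraries 1, 2 and 4 at 0 h, and 30 °C libraries 1, 3 and 5 and 22 °C libraries 2, 3 and 5 at 24 h (adjusted p 0.0148 to 0.0972 over its alternatives). The difference between temperatures at 24 h (0.91 ± 0.30, adjusted p = 0.0338) was lost without 30 °C library 1, 3 or 5 or 22 °C library 3 or 5 (adjusted p 0.0141 to 0.107 over its alternatives). The fall from 0 h at 30 °C (-0.89 ± 0.30, adjusted p = 0.0238) was lost without library 2 of either group (adjusted p 0.0145 to 0.0993 over its alternatives).

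Histidine was the one pathway with more than 2 genes in which every member differed between the temperatures at 24 h and had a called interaction. Hal, histidine ammonia-lyase, removes the amino group, and Uroc1, Amdhd1 and Ftcd carry the product to glutamate and a one-carbon unit. Hal (ENSMUSG00000020017, chr10:93488768-93519304, plus strand) read 572, 376, 491, 458 and 425 at 24 h at 30 °C, against 193, 74.0, 121, 228 and 166 at 22 °C. Uroc1, urocanase (ENSMUSG00000034456, chr6:90333284-90364551, plus strand), read 399, 242, 303, 152 and 134 at 30 °C, against 80.4, 88.6, 44.5, 106 and 81.0 at 22 °C. Neither gene's groups overlapped. Amdhd1, imidazolonepropionase (ENSMUSG00000015890, chr10:93523338-93540033, minus strand), read 232, 179, 200, 234 and 272 at 30 °C, against 49.0, 76.3, 53.7, 97.5 and 81.2 at 22 °C, likewise without overlap. Ftcd, the bifunctional last enzyme (ENSMUSG00000001155, chr10:76575648-76590338, plus strand), read 228, 188, 178, 208 and 282 at 30 °C, against 111, 79.4, 101, 153 and 176 at 22 °C, with the lowest 30 °C library just above the highest 22 °C one.

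None of the 4 histidine genes was called between the temperatures at 0 h. Hal averaged 724 ± 164 at 30 °C and 717 ± 184 at 22 °C, and Uroc1 749.5 ± 162 at 30 °C and 719 ± 72.8 at 22 °C. Amdhd1 averaged 406 ± 59.5 at 30 °C and 333 ± 41.02 at 22 °C, and Ftcd 128 ± 12.4 at 30 °C and 137 ± 22.1 at 22 °C. At 12 h Hal averaged 210.5 ± 42.8 at 30 °C and 124 ± 30.2 at 22 °C, and Uroc1 89.0 ± 15.6 at 30 °C and 156 ± 37.8 at 22 °C. Hal and Amdhd1 were already lower at 4 h at both temperatures, with Hal at -1.34 ± 0.23 at 30 °C (adjusted p = 2.5e-05) and -1.01 ± 0.25 at 22 °C (adjusted p = 0.00182). At 30 °C Uroc1 (-0.72 ± 0.25, adjusted p = 0.027) and Ftcd (-0.71 ± 0.20, adjusted p = 0.00483) were lower then as well, and the Uroc1 call was lost without library 2 at 0 h or at 4 h (adjusted p 0.00759 to 0.159 over its alternatives). The 24 h interactions were 1.63 ± 0.32 for Hal (adjusted p = 0.00121) and 1.5 ± 0.35 for Uroc1 (0.00499). They were 1.38 ± 0.27 for Amdhd1 (0.00127) and 0.93 ± 0.27 for Ftcd (0.0258). At 30 °C and 24 h, Hal, Uroc1 and Amdhd1 were still below 0 h (-0.63, -1.70 and -0.86), and Ftcd was above it (0.74). The Hal call there was lost without library 1, 2 or 5 at 0 h or library 2 or 5 at 24 h (adjusted p 0.0162 to 0.105 over its alternatives). The Ftcd interaction was lost without 22 °C library 4 at 0 h, 30 °C library 5 at 24 h or 22 °C library 2 or 3 at 24 h (adjusted p 0.00666 to 0.0639 over its alternatives).

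The 4 tyrosine genes all fell at 12 h at both temperatures. At 24 h Hpd and Hgd, the upper 2 steps among these 4, had a called interaction. Hpd makes homogentisate and Hgd opens its ring, while Gstz1 and Fah complete the breakdown. Hgd (ENSMUSG00000022821, chr16:37580153-37632020, plus strand) read 367, 340.5, 356, 257 and 355 at 24 h at 30 °C, against 93.4, 105, 65.9, 93.9 and 119 at 22 °C. Hpd (ENSMUSG00000029445, chr5:123171807-123182727, minus strand) read 110.2, 82.8, 109.7, 47.7 and 109 at 30 °C, against 34.0, 39.4, 39.4, 26.9 and 41.1 at 22 °C. Both genes' 30 °C libraries were above all their 22 °C libraries. At 0 h Hgd averaged 354 ± 151 at 30 °C and 499.5 ± 93.5 at 22 °C, and Hpd 169.8 ± 35.0 at 30 °C and 191 ± 45.8 at 22 °C. The interaction was 2.40 ± 0.35 for Hgd (adjusted p = 4.13e-05) and 1.44 ± 0.34 for Hpd (adjusted p = 0.00669). Hgd at 30 °C was 0.02 ± 0.24 from its 0 h level (adjusted p = 0.969), and Hpd was still lower (-0.92 ± 0.24, adjusted p = 0.00296). Gstz1 averaged 226 ± 33.3 at 30 °C and 199.7 ± 44.2 at 22 °C at 24 h, and Fah 42.0 ± 8.82 at 30 °C and 35.9 ± 7.72 at 22 °C. Neither had a called interaction (0.17 ± 0.21 for Gstz1, adjusted p = 0.692; 0.43 ± 0.27 for Fah, adjusted p = 0.363). The fall of Fah at 30 °C by 24 h (-0.50 ± 0.19, adjusted p = 0.0426) was lost without library 1, 2, 3 or 5 at 0 h or 2 or 4 at 24 h (adjusted p 0.0196 to 0.142 over its alternatives).

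Among the tryptophan genes Tdo2 rose at 12 h at both temperatures, and Afmid, Kynu and Haao fell. Tdo2, tryptophan dioxygenase, which opens the ring (ENSMUSG00000028011, chr3:81957090-81976202, minus strand), read 629, 518, 577, 456 and 732 at 24 h at 30 °C, against 369, 356, 212, 364 and 345 at 0 h, with no overlap, a rise of 0.83 ± 0.20 (adjusted p = 0.00175). At 22 °C it was highest at 12 h, at 928, 738, 985, 772 and 692, against 558, 467, 372 and 610.5 at 0 h, a rise of 0.72 ± 0.21 (adjusted p = 0.00658). Its 12 h rise at 30 °C (0.63 ± 0.21, adjusted p = 0.0191) was lost without library 3 at 0 h or 1, 2 or 3 at 12 h (adjusted p 0.00495 to 0.0781 over its alternatives). Afmid, kynurenine formamidase (ENSMUSG00000017718, chr11:117825924-117839908, plus strand), whose promoter is the first printed above, had the deepest fitted fall of the list. It read 1.71, 0, 0 and 3.99 at 12 h and 0, 1.51, 3.25, 0 and 1.88 at 24 h at 30 °C, against 33.2, 30.7, 17.7, 20.5 and 27.0 at 0 h. At 22 °C it read 9.31, 3.98, 2.83, 4.51 and 0 at 12 h and 0, 0.92, 0, 0.801 and 0 at 24 h, against 45.5, 17.4, 18.2 and 38.7 at 0 h. At 24 h, 4 of 5 libraries at 30 °C and 5 of 5 at 22 °C were below the worth of 3 reads. That floor is set per library and not for Afmid itself, so its true number of reads may differ. The fitted 24 h differences of -3.72 ± 0.51 at 30 °C (adjusted p = 4.85e-07) and -4.47 ± 0.54 at 22 °C (adjusted p = 3e-08) therefore depend on the added 1. Gm20708, an annotated gene on the same strand with exon bases in common, fell too (-4.78 at 30 °C and -4.91 at 22 °C), and reads of the 2 could be split either way.

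Kynu, kynureninase (ENSMUSG00000026866, chr2:43555329-43682715, plus strand), averaged 59.3 ± 14.0 at 30 °C and 62.7 ± 3.69 at 22 °C at 0 h, and 14.2 ± 3.30 at 30 °C and 15.5 ± 8.49 at 22 °C at 12 h. At 24 h it read 71.5, 86.2, 77.6, 53.5 and 70.5 at 30 °C, against 10.5, 5.32, 10.9, 28.6 and 24.5 at 22 °C, without overlap. Its 24 h interaction was 2.42 ± 0.42 (adjusted p = 0.000285). Kmo, kynurenine hydroxylase (ENSMUSG00000039783, chr1:175620381-175662116, plus strand), averaged 104 ± 8.79 at 12 h at 30 °C and 117 ± 19.3 at 22 °C. At 24 h it read 206, 182, 216, 208 and 235 at 30 °C, against 80.9, 72.8, 84.5, 115 and 132 at 22 °C. All 5 libraries at 30 °C were above those at 22 °C and above the 0 h mean at 30 °C of 104 ± 6.54. Its 24 h interaction was 1.05 ± 0.21 (adjusted p = 0.00144). Its rise at 4 h at 22 °C (0.51 ± 0.16, adjusted p = 0.0151) was lost without library 1 at 0 h (adjusted p 0.00829 to 0.0847 over its alternatives). Haao, which makes the precursor of quinolinate, was lower at both temperatures at 24 h and read 70.7, 54.1, 56.5, 38.3 and 64.8 at 30 °C, against 25.6, 46.8, 19.7, 20.4 and 39.3 at 22 °C. The difference was 0.94 ± 0.25 (adjusted p = 0.00648), with an uncalled interaction of 0.85 ± 0.36 (adjusted p = 0.142).

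The methionine and cysteine genes held the 2 largest interactions of the list, Cth and Bhmt. Cth, cystathionine gamma-lyase, which makes cysteine and hydrogen sulfide (ENSMUSG00000028179, chr3:157894248-157925077, minus strand), averaged 159 ± 67.9 at 30 °C and 248 ± 113 at 22 °C at 0 h. At 12 h it read 6.63, 13.7, 9.30 and 6.21 at 30 °C, against 35.7, 38.4, 18.5, 22.1 and 7.98 at 22 °C. At 24 h it read 126, 105, 240.4, 56.9 and 77.3 at 30 °C, against 5.11, 11.2, 12.1, 23.8 and 32.4 at 22 °C. Cth was low at both temperatures at 12 h, with overlap, and at 24 h every 30 °C library was higher. Its fall by 12 h was -3.98 ± 0.44 at 30 °C (adjusted p = 4.15e-09) and -3.33 ± 0.44 at 22 °C (adjusted p = 1.69e-07). By 24 h it was -0.48 ± 0.41 at 30 °C (adjusted p = 0.413) and -3.90 ± 0.44 at 22 °C (adjusted p = 7.67e-09). The interaction was 3.42 ± 0.60 (adjusted p = 0.000328). Cbs, the enzyme before it (ENSMUSG00000024039, chr17:31608894-31637238, minus strand), read 56.4, 59.6, 54.6, 42.3 and 62.5 at 24 h at 30 °C, against 25.5, 16.3, 16.6, 25.8 and 30.5 at 22 °C, with no overlap and an interaction of 1.37 ± 0.30 (adjusted p = 0.0036).

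Bhmt, which remakes methionine from homocysteine with betaine (ENSMUSG00000074768, chr13:93616675-93637961, minus strand), was lowest at 12 h at 30 °C and at 24 h at 22 °C. At 30 °C it read 1417, 2055, 1684, 1511 and 1830 at 0 h, 162, 297, 359 and 109.7 at 12 h and 5820, 2265, 7879, 1460 and 6117 at 24 h. The 22 °C libraries read 3263, 2473, 4268 and 5373 at 0 h, 1895, 1414, 1074, 1423 and 666 at 12 h and 788, 798, 736, 1096 and 2016 at 24 h. The 30 °C libraries were all below the 22 °C libraries at 0 h and at 12 h, and at 24 h 4 of the 5 were above all 22 °C libraries. The difference between temperatures was -1.13 ± 0.40 at 0 h (adjusted p = 0.285), -2.54 ± 0.40 at 12 h (adjusted p = 0.000189) and 1.96 ± 0.38 at 24 h (adjusted p = 0.000303). Bhmt was above 0 h at 24 h at 30 °C (1.22 ± 0.38, adjusted p = 0.014; 0.0617, the highest of its alternatives, without library 3 at 24 h) and below it at 22 °C (-1.88 ± 0.40, adjusted p = 0.000336). The interaction was 3.09 ± 0.55 (adjusted p = 0.000431), which includes the uncalled difference at 0 h.

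Mat1a, methionine adenosyltransferase, which makes S-adenosylmethionine (ENSMUSG00000037798, chr14:41105035-41124412, plus strand), rose at both temperatures and more at 30 °C. It read 14220, 12490, 14300, 15590 and 16620 at 24 h at 30 °C, against 6690, 5668, 6357, 9078 and 9832 at 22 °C, with every 30 °C library higher. It averaged 3723 ± 547 at 30 °C and 4293 ± 755 at 22 °C at 0 h. The rise was 1.98 ± 0.17 at 30 °C (adjusted p = 4.71e-11) and 0.79 ± 0.19 at 22 °C (adjusted p = 0.000878). The interaction was 1.19 ± 0.25 (adjusted p = 0.00268). Cdo1, cysteine dioxygenase, which commits cysteine to taurine and sulfate, read 1391, 1347, 1146, 882 and 1055 at 24 h at 30 °C, against 1600, 1832, 1678, 2098 and 1651 at 22 °C, with every 30 °C library lower. That difference was -0.62 ± 0.13 (adjusted p = 0.000703), and the interaction was not called (-0.46 ± 0.19, adjusted p = 0.129). Cdo1 was higher than at 0 h at 22 °C at 12 h (0.44 ± 0.14, adjusted p = 0.00867) and lower at 30 °C at 24 h (-0.41 ± 0.13, adjusted p = 0.0143; 0.00646 to 0.0806 over its alternatives, lost among others without library 4 at 24 h). Gnmt, which uses up S-adenosylmethionine, was not called in any comparison and averaged 1030 ± 219 at 30 °C and 996 ± 118 at 22 °C at 24 h. Ahcy, which clears S-adenosylhomocysteine, was lower at 30 °C at 4 h (-0.52 ± 0.15, adjusted p = 0.00676) and at 12 h (-0.45 ± 0.15, adjusted p = 0.0164). Both calls were lost when only the groups compared were fitted, and the 12 h call also without library 2 at 0 h (adjusted p 0.000648 to 0.0706 at 4 h and 0.00173 to 0.0939 at 12 h over the alternatives).

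Aass, which starts lysine breakdown in mitochondria (ENSMUSG00000029695, chr6:23072173-23132986, minus strand), read 124, 170.2, 115, 158 and 179 at 24 h at 30 °C, against 82.3, 53.5, 39.2, 116 and 118 at 22 °C. At 0 h it averaged 61.6 ± 7.09 at 30 °C and 76.9 ± 10.1 at 22 °C. It was above 0 h at 30 °C (1.25 ± 0.22, adjusted p = 3.44e-05), with -0.03 ± 0.23 at 22 °C (adjusted p = 0.945) and an interaction of 1.28 ± 0.32 (adjusted p = 0.00928). Bckdha and Bckdhb encode the 2 subunits of the branched-chain ketoacid dehydrogenase E1 and differed in their calls. Bckdhb (ENSMUSG00000032263, chr9:83925145-84124240, plus strand) read 95.3, 88.7, 105, 84.9 and 119 at 24 h at 30 °C, against 57.4, 53.2, 45.2, 44.5 and 82.5 at 22 °C, with every 30 °C library higher. It was above 0 h at 30 °C (0.88 ± 0.28, adjusted p = 0.0151; 0.0628, the highest of its alternatives, without library 3 at 0 h) and below it at 22 °C (-0.91 ± 0.29, adjusted p = 0.0139). At 4 h at 30 °C Bckdhb read 166, 123, 109.7 and 127, against 52.3, 37.4, 33.1, 89.9 and 69.4 at 0 h, without overlap. That rise was 1.29 (adjusted p = 0.000781) and held under every alternative, and the gene was not called at 4 h at 22 °C. The 24 h interaction was 1.79 ± 0.40 (adjusted p = 0.00407). It includes the uncalled difference at 0 h, where Bckdhb averaged 56.4 ± 23.5 at 30 °C and 106 ± 17.3 at 22 °C. Its difference between temperatures at 24 h (0.82 ± 0.28, adjusted p = 0.0362) was lost without 30 °C library 1, 3 or 5 or 22 °C library 1, 2, 3 or 4 (adjusted p 0.0148 to 0.0897 over its alternatives). Bckdha (ENSMUSG00000060376, chr7:25629946-25658981, minus strand) was lower than at 0 h at 30 °C at 12 h (-1.22 ± 0.28, adjusted p = 0.000719), and not called at 22 °C (-0.50 ± 0.28, adjusted p = 0.161) or in the 24 h interaction (-0.09 ± 0.39, adjusted p = 0.92). It averaged 29.1 ± 9.97 at 30 °C and 42.8 ± 5.26 at 22 °C at 12 h. B3gnt8, which shares exon bases with Bckdha on the opposite strand, was also lower there (-1.11).

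Over the whole list, 20 members had a called interaction at 24 h, all with the more positive change at 30 °C. Among all genes 5.07% were called in that direction. In the other direction were 0 members, against 3.88% of all genes. By pathway these were 4 of 4 histidine genes, 4 of 7 for methionine and cysteine, 3 of 5 for glutamate, ornithine and proline and 2 of 4 for tyrosine. They were 2 of 5 for tryptophan, 2 of 7 in the urea cycle, 1 of 6 for serine and the aminotransferases, 1 of 2 branched-chain genes and the lysine gene. Median interactions were 1.44 for histidine, 1.19 for methionine and cysteine, 0.93 for tyrosine, 0.85 for tryptophan, 0.85 for the branched-chain genes and 0.65 for the urea cycle, and -0.04 over all genes tested. Differences between pathways were not tested. The number of interactions was 18 to 21 when any 1 library was left out. Each interaction includes the difference between temperatures at 0 h. There 31 of the 41 members had a lower mean log2 signal at 30 °C, with a median of -0.20, against 0.01 over all genes. The median of the members was 0.99 for the interaction and 0.74 for the direct difference at 24 h.

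**Figure D3:**
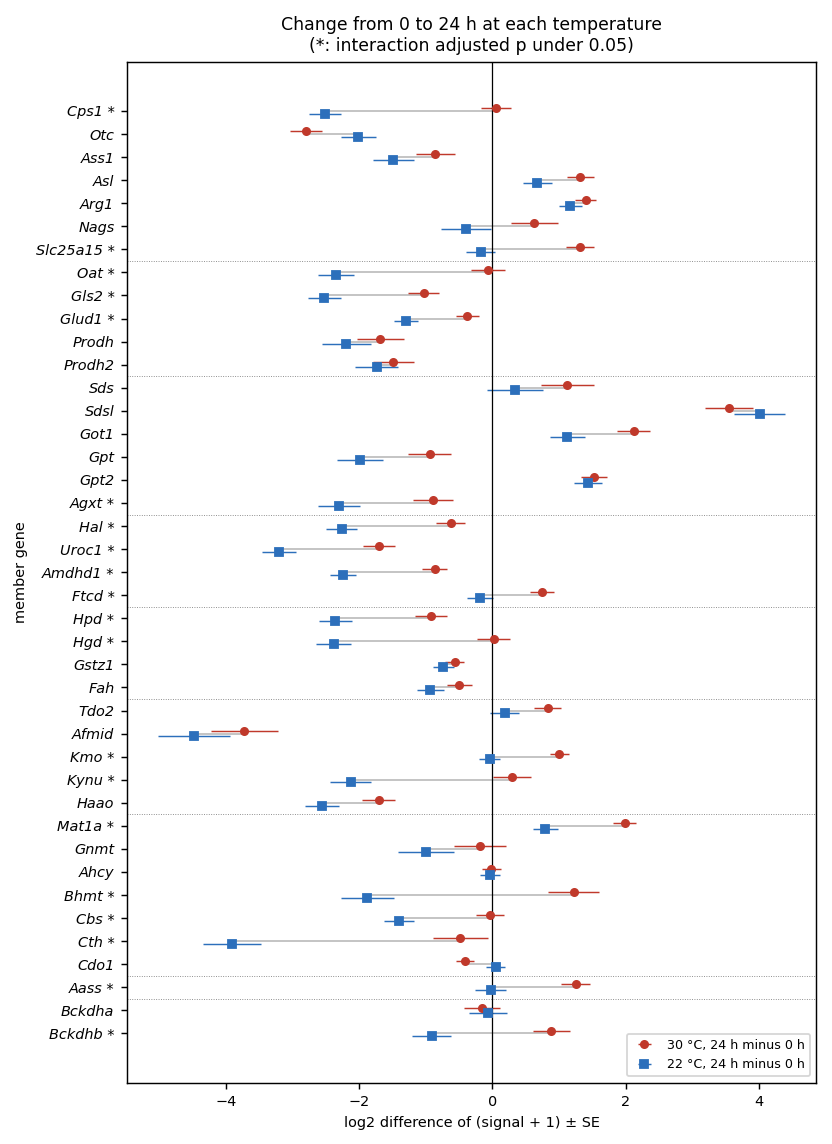
Log2 difference of (signal + 1) of 24 h minus 0 h ± SE for each of the 41 members, with 30 °C as red circles above 22 °C as blue squares in each row; dotted lines part the pathways and asterisks mark called interactions. The red circle lies to the right of the blue square in 37 of 41 rows, and the widest gaps are those of Cth (3.42) and Bhmt (3.09). The rows come from the same libraries and are not independent.

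Set directly against each other at 24 h, 21 members were higher at 30 °C than at 22 °C and 2 (Otc and Cdo1) lower, against 9.93% and 8.71% of all genes. The libraries of the 2 temperatures did not overlap for 16 members with 30 °C above, where 5.62% of all genes did so, and for 1 with 30 °C below, against 5.72%. The members' summed share of all signal was 3.24% ± 0.33 at 30 °C and 1.91% ± 0.30 at 22 °C (SD, n = 5 each), and it was 2.15% ± 0.29 at 30 °C (n = 5) and 2.48% ± 0.43 at 22 °C (n = 4) at 0 h. This sum is weighted to the members with the highest signal and does not describe the list as a whole. At 30 °C Mat1a averaged 14640 at 24 h and 3723 at 0 h, and Bhmt 4708 and 1699, while 16 members were called below 0 h. At 22 °C Mat1a averaged 7525 at 24 h and 4293 at 0 h, and Bhmt 1087 and 3844. Estimated depth at 24 h was 710000 to 2295000 reads at 30 °C and 779000 to 931000 at 22 °C. The shallowest 30 °C library, number 3, had the highest value of its group for Bhmt (7879) and for Cth (240.4). The summed hepatocyte markers were 8646 to 15690 at 30 °C and 10890 to 15740 at 22 °C at 24 h, and none of these 5 markers had a called interaction. Of other cell types' markers, Clec4g (3.28) and Kdr (2.14) of sinusoidal endothelium and Lrat (2.57) of stellate cells had a called interaction in the direction of the members, and Lyve1 (-1.62) in the other. The summed endothelial markers were 119 to 215 at 30 °C and 114 to 171 at 22 °C, with Clec4g at 0 in all 5 libraries at 22 °C. Their part in the members' values was not tested.

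**Figure D4:**
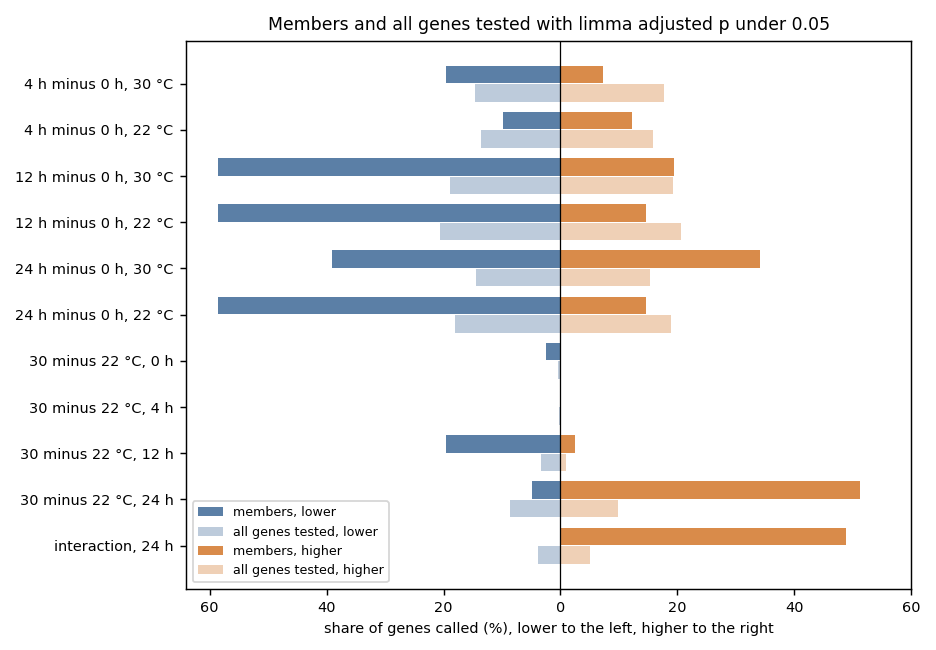
Share of the 41 members (solid bars) and of all 8702 genes tested (pale bars) called in the comparisons with 0 h, those between temperatures and the 24 h interaction, in percent, lower to the left and higher to the right. Among the comparisons drawn, members exceed all genes most in the lower direction at 12 h at both temperatures and at 24 h at 22 °C (58.5% each) and in the higher direction of the 24 h temperature difference (51.2%) and interaction (48.8%).

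Most members called between 12 and 24 h were higher at 24 h at 30 °C and lower at 22 °C. At 30 °C, 25 members were higher at 24 h than at 12 h, against 11.6% of all genes, and 2 (Otc and Cdo1) lower, against 9.52%. At 22 °C, 2 were higher (Gstz1 and Mat1a), against 4.02%, and 10 lower, against 6.6%. The step was 4.23 ± 0.40 for Bhmt (adjusted p = 1.27e-09), 3.5 ± 0.44 for Cth (adjusted p = 3.09e-07), 2.27 ± 0.30 for Kynu (adjusted p = 1.01e-06) and 1.96 ± 0.26 for Hgd (adjusted p = 7.39e-07) at 30 °C. At 22 °C the same genes had steps of -0.28 ± 0.38, -0.57 ± 0.41, -0.06 ± 0.29 and -0.52 ± 0.24, none of them called. Cps1 at 22 °C fell further (-1.10 ± 0.23, adjusted p = 0.00117), as did Haao (-1.41 ± 0.25, adjusted p = 0.000143). The 2 rises at 22 °C were lost without library 1 or 2 at 12 h or 4 or 5 at 24 h, and that of Gstz1 also without library 3 or 4 at 12 h or 2 at 24 h (adjusted p 0.0111 to 0.13 for Gstz1 and 0.00323 to 0.0877 for Mat1a over the alternatives). The fall of Otc at 30 °C was lost without library 3 at 12 h or 4 at 24 h (adjusted p 0.000522 to 0.143 over its alternatives). The 12 h libraries also enter the comparison of 12 h with 0 h.

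Before LPS and early after it, temperature made few called differences. At 0 h Oat was lower at 30 °C and no member higher, against 0.414% and 0.0919% of all genes, with 8 members at an unadjusted p under 0.05. At 4 h no member was called in either direction, against 0.184% lower and 0.023% higher among all genes, under limma or any alternative run. At that time 40 of 41 members had a lower mean log2 signal at 30 °C, with a median of -0.44 and 11 at an unadjusted p under 0.05, and the median over all genes was 0.04. Members read in the same libraries are not independent, so they do not count as replicates of this difference. The members' share of all signal at 4 h, again weighted to the highest members, was 1.37% ± 0.28 at 30 °C and 1.97% ± 0.43 at 22 °C (SD, n = 4 each). Library 4 at 30 °C, which stood apart, had the lowest share (1.07%), and without it the share was 1.47% ± 0.24 (n = 3), 39 of 41 members had the lower mean at 30 °C and the median was -0.42. No interaction was called at 4 h, with 3 members at an unadjusted p under 0.05, where 0.0115% of all genes were called lower and 0% higher. At 12 h, 8 members were lower at 30 °C (Otc, Gls2, Gpt, Hpd, Gstz1, Haao, Bhmt and Cdo1), against 3.29% of all genes, and Slc25a15 was higher, against 0.977%. This count rested on single libraries: it was 1 without 22 °C library 2, 3 without 30 °C library 1 or 4 or 22 °C library 1, 5 without 30 °C library 2 and 13 without 22 °C library 5. Bhmt was the one member called there under every alternative. Of those not yet given at 12 h, Hpd read 35.3, 32.7, 47.7 and 23.6 at 30 °C, against 83.8, 102, 62.0, 66.1 and 42.8 at 22 °C (adjusted p 0.00297 to 0.0942 over the alternatives), with overlap. Gstz1 read 92.9, 93.05, 111 and 84.4 at 30 °C, against 137, 148, 140.3, 126 and 160.0 at 22 °C (0.0072 to 0.0973), with every 30 °C library lower. Haao read 36.4, 55.1, 60.4 and 25.1 at 30 °C, against 82.0, 108, 88.1, 88.7 and 40.95 at 22 °C (0.00468 to 0.236), with overlap. Cdo1 read 1653, 1451, 1638 and 1850 at 30 °C, against 2614, 2672, 2243, 2178 and 1991 at 22 °C (0.00979 to 0.114), with every 30 °C library lower.

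Other genes of amino acid metabolism were taken from a list of 79, all found and 64 of them tested. At 12 h, 48 were lower and 8 higher than at 0 h at 30 °C, against 18.9% and 19.3% of all genes, and 42 lower and 7 higher at 22 °C, against 20.6% and 20.7%. At 24 h, 34 were lower and 7 higher at 30 °C, against 14.4% and 15.3% of all genes, and 49 lower and 6 higher at 22 °C, against 18% and 19%. The median log2 difference at 24 h was -0.74 at 30 °C and -1.49 at 22 °C. Large falls at 12 h at 30 °C were those of Csad, a taurine synthesis enzyme (-3.68 ± 0.35, adjusted p = 1.48e-10), and Ethe1, which oxidises hydrogen sulfide products (-3.63 ± 0.34, 1.25e-10). The largest at 22 °C were those of Ido2, a tryptophan dioxygenase (-2.95 ± 0.32, adjusted p = 3.79e-09), and Acmsd, which steers tryptophan carbon away from NAD synthesis (-2.61 ± 0.55, 0.000208). The third was that of Shmt1, serine hydroxymethyltransferase (-2.58 ± 0.26, 7.53e-10). The same 3 genes had the largest rises at both temperatures: Slc38a2, a neutral amino acid transporter (2.11 ± 0.24 at 30 °C and 2.58 ± 0.24 at 22 °C), Nos2, inducible nitric oxide synthase, which also uses arginine (2.96 ± 0.54 and 2.20 ± 0.54 at the same temperatures), and Tat, tyrosine aminotransferase (1.79 ± 0.22 and 1.81 ± 0.22), each with an adjusted p of at most 0.00124. Nos2 was below the worth of 3 reads in all 9 libraries at 0 h, so its fitted rise depends on the added 1.

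Among the aromatic amino acid genes of this list, 8 of 11 tested had a called interaction, all more positive at 30 °C, against 5.07% of all genes. Acmsd averaged 124 ± 53.8 at 30 °C and 17.9 ± 8.85 at 22 °C at 24 h (interaction 3.52 ± 0.75, adjusted p = 0.00257). Called interactions were 3 of 17 for branched-chain breakdown, 4 of 13 in that direction and 2 of 13 in the other for glycine and one-carbon metabolism, 2 of 6 for lysine, threonine and cysteine, 1 of 8 for transport and 0 of 9 for glutamate, arginine and proline. In that last group, Nos2 averaged 27.9 ± 1.06 at 4 h at 30 °C and 37.97 ± 13.4 at 22 °C, and at 24 h it was listed at 0 in all 5 libraries at 30 °C, against a mean of 5.12 ± 4.65 at 22 °C.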

How the data were processed

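Per the submitters' processing notes, reads were handled with Trimmomatic, kallisto and sleuth. The sources used here do not give versions, genome build, index, collapsing of molecular identifiers or use of strand. The values used are the deposited read signal per gene, normalised by the authors across libraries, and the deposited second column headed TPM entered an alternative. TPM columns summed to between 757040 and 1746038 per library. Values were not whole multiples of a read for most genes (16.8% to 19.6% within 0.01 read), so no count test was run. Depth in reads was estimated from a low value shared by many genes of a library, and its floors cover counting error only. That value was set per library and not per gene, so depths and floors are approximate.

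Values were taken as log2(signal + 1). Genes with a mean of at least 5 (8702 of 34829) were fitted with limma 3.58.1 in R 4.3.3 (lmFit, eBayes with trend), 1 mean per group over all 36 libraries, and p-values were adjusted by Benjamini-Hochberg over all genes in each of 15 comparisons. The fit was tested on simulated data. Alternatives were other added constants (0.5 and 5), no filter, the second column, 2 rescalings, array weights, a replicate block, fitting only the groups compared, and leaving out each library. Levels use the deposited scale, and n is the number of libraries of the group.

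Members and lists were chosen with earlier results of these data known. Every member is named. Values per library are given for the urea cycle enzymes, the largest called change of each pathway, and members that rose or were called between temperatures. They cover most but not all of the times of those calls, with group means or the call alone elsewhere. Genes of the wider list were named as the 3 largest called falls and rises at 12 h at each temperature, less 1 gene that is not reported here, with Acmsd also given at 24 h after its values were seen. Gene positions are from GENCODE M21 (GRCm38), and promoters from RefSeq. Replicate numbers did not pair libraries.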

Additional observations from a re-analysis of the deposited data

Results flagged for a closer look

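The difference between 30 °C and 22 °C in the change from 0 h to 24 h passed limma's interaction test for 20 members. In the urea cycle it was 2.56 for Cps1 and 1.49 for Slc25a15, which also had 1.46 at 12 h. For glutamate and ornithine it was 2.28 for Oat, 1.49 for Gls2 and 0.92 for Glud1. Agxt had 1.41. For histidine it was 1.63 for Hal, 1.5 for Uroc1, 1.38 for Amdhd1 and 0.93 for Ftcd. For tyrosine it was 1.44 for Hpd and 2.40 for Hgd, and for tryptophan 1.05 for Kmo and 2.42 for Kynu. For methionine and cysteine it was 1.19 for Mat1a, 3.09 for Bhmt, 1.37 for Cbs and 3.42 for Cth. Aass had 1.28 and Bckdhb 1.79. All are log2 differences, positive where the change was the more positive at 30 °C.

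A single library lay far from the others of its group (Dixon's criterion) for 14 of 328 member groups, and about 1 in 20 would do so by chance. At 30 °C these were Agxt at 133 in library 2, Gstz1 at 378 in library 1, Fah at 44.0 in library 4 and Tdo2 at 212 in library 3 at 0 h. At 12 h at 30 °C they were Got1 at 319 and Tdo2 at 346, both in library 4, and at 24 h Arg1 at 3863 in library 5 and Hgd at 257 in library 4. At 22 °C they were Amdhd1 at 394 in library 4 at 0 h, Prodh at 15.2 in library 1 and Gpt2 at 79.0 in library 2 at 4 h, and Kynu at 30.6 in library 2 at 12 h. At 24 h at 22 °C library 5 stood apart for Cps1 at 925 and for Bhmt at 2016, both the highest of their group.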

How the results depend on the processing

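Of 235 calls on members, 185 held under every alternative, 50 were lost under at least 1 and 44 of these when 1 library was left out, and no call reversed its sign. Of the 62 calls of 12 h against 0 h, 59 held throughout, and of the 9 between temperatures at 12 h, 1 did. Calls lost numbered 27 without the filter, 25 when fitting only the groups compared, 10 under upper-quartile rescaling, 6 with array weights, 2 each with the second deposited value, median-ratio rescaling and the replicate block, and 1 with an added constant of 5.

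Counts of members that moved by over 1.5 times were these. Without the filter, 4 were lower at 30 °C than at 22 °C at 12 h (8 as reported), 1 at 24 h (2), 0 had an interaction at 12 h (1) and 0 rose between 12 and 24 h at 22 °C (2). With the second deposited value 2 were higher at 30 °C at 12 h (1). Under upper-quartile rescaling 3 were higher at 4 h at 22 °C (5), and at 12 h 5 were lower and 3 higher at 30 °C than at 22 °C. Array weights gave 15 lower and 3 higher there. Fitting only the groups compared gave 0 lower at 30 °C at 0 h (1), 4 lower at 12 h, and between 12 and 24 h 1 higher at 22 °C (2) and 1 lower at 30 °C (2). Leaving out 1 library gave 5 to 10 lower at 4 h at 30 °C (8) and 2 to 4 at 22 °C (4). Between temperatures it gave 1 to 13 lower and 0 to 3 higher at 12 h, and 1 to 2 lower at 24 h. Interactions were 0 to 1 higher at 12 h, and at 24 h 0 to 1 lower (Otc, without 30 °C library 3). Between 12 and 24 h it gave 0 to 2 higher at 22 °C and 1 to 2 lower at 30 °C. The cause was not tested.

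Same-numbered libraries did not deviate together (median correlation -0.000568 over 118 pairs; 10 of 36 correlated best with their own number), so the numbers do not pair them. With the replicate block, 3 members were higher at 30 °C at 12 h (1), and no other count moved by over 1.5 times. Upper-quartile rescaling moved the median of all genes by over 0.1 in 5 comparisons. It was then -0.17 in place of -0.04 at 4 h at 30 °C, -0.20 in place of -0.10 at 4 h at 22 °C, 0.11 in place of 0.01 at 12 h at 30 °C, 0.08 in place of -0.03 at 24 h at 30 °C and 0.08 in place of -0.03 for the 12 h interaction. At 24 h at 30 °C the members' median was then 0.04 in place of -0.07. Depth limits the lowest members: Afmid, Prodh and Sdsl lie partly under the worth of 3 reads.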

Other observations

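Gamt, Hoga1 and Glul of the wider list were singled out after their values were seen. Gamt, which makes creatine from guanidinoacetate with S-adenosylmethionine, averaged 1.72 ± 1.35 at 30 °C and 22.8 ± 15.4 at 22 °C at 24 h, against 132 ± 26.0 at 30 °C and 115 ± 24.7 at 22 °C at 0 h. Its change was -5.77 ± 0.37 at 30 °C and -2.53 ± 0.39 at 22 °C, an interaction of -3.24 ± 0.54 (limma adjusted p = 0.000162). At 24 h at 30 °C 3 of 5 libraries were below the worth of 3 reads and 1 of them was at 0, so the fitted change and interaction depend on the added 1. Hoga1, of hydroxyproline breakdown, had an interaction of -0.88 ± 0.21 (adjusted p = 0.00553). They were the 2 genes of that list with a called interaction in the negative direction.

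Glul, glutamine synthetase, which fixes ammonia in the hepatocytes around the central vein, averaged 16.8 ± 2.87 at 30 °C and 68.6 ± 38.3 at 22 °C at 24 h. The difference was -1.78 ± 0.29 (adjusted p = 4.37e-05), with an interaction of -1.20 ± 0.43 (adjusted p = 0.0768).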
